A study of Mus musculus with 8 samples.

Results

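The replication-dependent histone genes of the mouse Hist1, Hist2, Hist3 and Hist4 clusters were followed in N33 embryonic stem cells (ESCs) under 4 culture conditions. Every gene whose symbol begins with Hist and the number 1, 2, 3 or 4 followed by h was taken, which gave 67 of the 20278 genes listed in any library: 6 linker histone H1 genes, 18 H2A, 19 H2B, 11 H3 and 13 H4 genes. The rule used symbols alone, and a gene without a row in a library was counted as 0 there. Apart from Hist1h2ao and Hist1h2ap, RNA of these genes was lowest in cells grown in N2B27 with 2i, at 27 ± 5.02 summed FPKM (SD, n = 2) against 93.2 ± 5.89 on feeders in serum, whereas Hist1h2ao and Hist1h2ap together held most of the reads in 7 of 8 libraries and did not pass the test in that comparison. The summed counts of that pair were 1.22-fold lower in N2B27 with 2i than on feeders in serum, short of the threshold. With that pair included, the 67 genes had 165 ± 4.11 summed FPKM in N2B27 with 2i against 269 ± 42.1 on feeders in serum.

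All 8 libraries came from N33 ESCs of a strain labelled C57BL/6 (C57BL/6J in the study's methods), with 2 biological duplicates per condition. The −F cells were grown on gelatin in medium with 20% fetal bovine serum, and the F cells in the same serum medium on mouse embryonic fibroblast (MEF) feeders arrested with mitomycin C. F2i cells had feeders, serum and 2i, that is inhibitors of Gsk3β (CHIR99021) and Mek (PD0325901). NB2i cells were kept in N2B27, a defined medium without serum, on poly-L-ornithine and laminin without feeders, with CHIR99021 at 3 µM and PD0325901 at 1 µM. The labels give these inhibitor doses for N2B27 only. Leukemia inhibitory factor (LIF) was present at 1000 U/ml in all 4 media. Under quantitative PCR, the study's methods separate cells of feeder dishes from the fibroblasts by adherence before RNA extraction. Its RNA sequencing section does not name this step. Some feeder RNA can thus remain in F and F2i, and a smaller number of cells of one type cannot be told apart from less RNA per cell in such bulk libraries. NB2i differs from F in feeders, serum and inhibitors at once, and these cannot be told apart in that comparison.

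Chromosomal DNA is packed by an octamer of the core histones H2A, H2B, H3 and H4, and linker histone H1 binds where DNA enters and leaves it. Cells make most of this protein during S phase from many clustered, nearly identical genes without introns. Their mRNAs end in a conserved stem-loop rather than a poly-A tail: the loop is bound by SLBP, and the U7 snRNP directs the cut just after it. The histone variant genes H2afz and H3f3b lie elsewhere in the genome, and their mRNAs carry poly-A tails throughout the cell cycle. The libraries here were made from poly-A RNA, so reads of cluster histone genes are those that passed oligo-dT selection and are not the whole of the histone mRNA.

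The 3′ stem-loop that sets these mRNAs apart is shown for the genes on which the results turn. A search of GENCODE M21 transcripts (GRCm38) for a 6-base stem beginning with GG and a 4-base loop found it in 44 of the 67 genes, and all 67 had a transcript there. Capitals mark the stem-loop and lower case up to 5 flanking bases on each side, written as DNA 5′ to 3′.
Hist1h1c: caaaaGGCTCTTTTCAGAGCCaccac
Hist1h2ao: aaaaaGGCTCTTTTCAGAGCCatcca
Hist1h2bk: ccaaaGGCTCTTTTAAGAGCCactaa
Hist1h3c: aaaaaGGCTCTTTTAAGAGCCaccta
Hist1h4i: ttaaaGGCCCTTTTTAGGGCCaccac
Hist1h4m: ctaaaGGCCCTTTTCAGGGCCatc
The form in Hist1h1c and Hist1h2ao was the most frequent, with 24 genes of the H1, H2A, H2B and H3 types. That of Hist1h2bk and Hist1h3c, which differs from it in the last base of the loop, was present in 6 genes, and the form of Hist1h4m in 7, all H4. Of the 44 genes, 21 had a GENCODE transcript ending within 60 bases of the stem-loop, and 22 had at least 100 bases beyond it, up to 4884 in Hist1h1d. Some gene models behind the deposited values were much shorter than the GENCODE transcript: that of Hist1h1c had 725 bases, where the stem-loop ends at base 720 of a GENCODE transcript of 1560 bases, and that of Hist1h1d had 776 of 7425. A model that ends near the stem-loop leaves out reads from beyond it. The longest deposited models were those of the pseudogene Hist1h2al, with 2983 bases, and of Hist2h2be, with 2667.

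Reads that fit several of these genes alike were divided among them by the authors' software, RSEM. Of all 50-base windows, the read length, the median cluster histone gene held 50.3% that occur in no other GENCODE gene, and 33 of the 67 had under 50%. Windows were taken over the GENCODE transcript chosen for each gene. Where the deposited model was shorter, the share over the counted bases can differ. The H1 genes were the most distinct, with 68.0 to 100% of windows their own and a median of 98.8%, while the median was 32.6% in H2A and 39.6% in H3. In all 8 libraries the estimates of the H1, the H3 and the H4 genes added up to whole reads within 0.05 counts for each type, whereas 7 of 78 values of single H3 genes above 0 were whole. Sums by type therefore do not depend on how reads were divided within H1, H3 and H4. The H2A sum was whole in 2 libraries and the H2B sum in none. Hist1h2bq and Hist1h2br, with 100% and 99.8% of windows shared, had identical values in every library and are 1 measurement listed under both names. Each of the 18 H2A genes overlaps an annotated antisense gene in GENCODE, and use of strand in the counting was not given in the sources used here, so reads of both strands cannot be told apart there.

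The depth of the 8 libraries was 20129641 to 20664488 expected counts, of which cluster histone genes took 1568 to 2867 counts. Between 41 and 59 of the 67 genes were listed per library, with the fewest in NB2i, and 34 were listed in all 8. Of the 67 genes, 35 had at least 10 counts in at least 2 libraries and were tested singly: 5 H1, 10 H2A, 9 H2B, 8 H3 and 3 H4. Of these 35, 24 did not reach 10 counts in either NB2i library, and 11 reached it in all 8. Genes that entered only through conditions where they are high had to come out lower elsewhere, so the counts of single genes below describe the tested genes and the sums over all members of a type carry the comparison. The cells had high RNA of pluripotency genes in every condition, with 4286 to 4595 summed FPKM over 10 ESC markers, of which Utf1 and Lin28a were called lower in F2i and NB2i than in F. Dppa5a alone gave 1757 to 2294 FPKM of this sum. In NB2i against F, 5 of the markers had positive and 5 negative log2 fold changes, so a like sum does not mean like levels of each.

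Hist1h2ap and Hist1h2ao, H2A genes of chromosome 13 (chr13:21833026-21833507 and chr13:21810465-21810944, GRCm38), dominated the reads. The pair took 43.6 to 83.4% of the counts of the 67 genes and was singled out after its values were seen. Hist1h2ap had 1097 and 956 expected counts in −F, 1267 and 879 in F, 435 and 899.7 in F2i and 816 and 782 in NB2i. Hist1h2ao had 701 and 489.7 expected counts in −F, 572 and 531 in F, 299 and 541 in F2i and 479 and 526 in NB2i. F2i replicate 1 was the lowest of the 8 libraries in both genes, and of the other 7 libraries both of NB2i were the lowest in Hist1h2ap but not in Hist1h2ao. The genes share 93% of their windows, had deposited gene models of 452 bases for Hist1h2ap and 552 for Hist1h2ao, and encode the same protein as 7 other H2A genes. Per length, the mean level over the 8 libraries was 103 FPKM for Hist1h2ap, 48.3 for Hist1h2ao and 4.59 for Hist1h2ag, the next H2A gene.

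**Figure D1:**
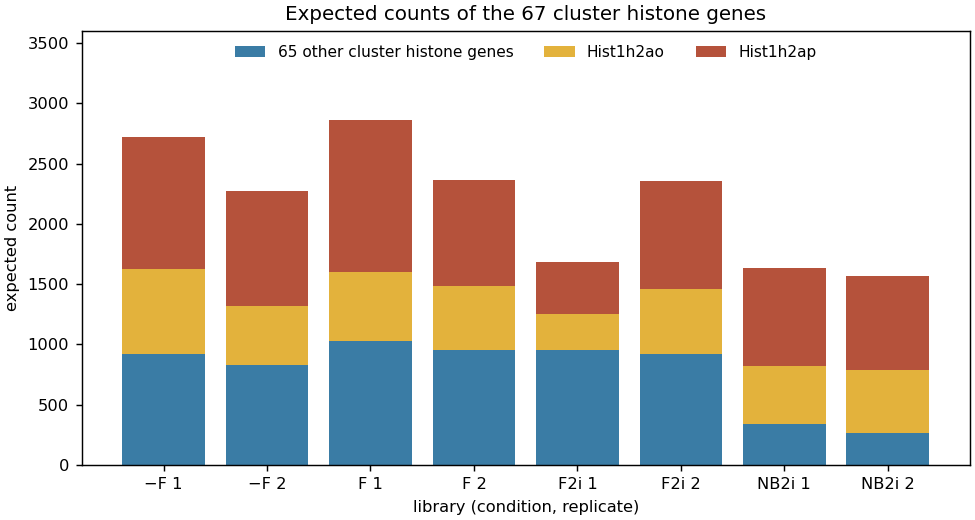
Expected counts of cluster histone genes in each of the 8 libraries, stacked for Hist1h2ap, Hist1h2ao and the 65 other genes. The 65 other genes had 829 to 1028 counts in the −F, F and F2i libraries and 260 to 341 in NB2i, and the Hist1h2ao and Hist1h2ap segments were smallest in F2i replicate 1.

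The comparison of NB2i with F asked how histone RNA differs between the defined medium with 2i and the standard feeder culture. Summed counts of all members fell in each histone type by edgeR, and by DESeq2 in each but H2A (DESeq2 adjusted p = 0.296). The fall was deepest in H1, at 6.86-fold, and was 3.37-fold in H2B, 2.76-fold in H3 and 2.66-fold in H4. In H2A it was 1.31-fold over 18 genes and 2.71-fold over the 16 genes other than Hist1h2ao and Hist1h2ap. The 65 genes without that pair had 921 and 829 counts in −F, 1028 and 956 in F, 951 and 917 in F2i and 340.5 and 260.2 in NB2i, so both NB2i libraries lay below all 6 others. Against F their log2 fold change was −1.69 ± 0.09, edgeR adjusted p = 5.35e-13 (SE given after ±, as for every log2 fold change). NB2i was also compared with −F and F2i, and these comparisons share the NB2i libraries. The log2 fold change of the 65 genes was −1.49 ± 0.09, edgeR adjusted p = 5.69e-12, against −F. Against F2i, which also had 2i, it was −1.66 ± 0.09, edgeR adjusted p = 1.72e-12. With the pair included, the fall over all cluster histone genes was smaller: −0.68 ± 0.11, edgeR adjusted p = 8.54e-06, against F. This whole sum changed by −0.58 ± 0.11, edgeR adjusted p = 5.32e-05, against −F. Against F2i the whole sum changed by −0.35 ± 0.11, edgeR adjusted p = 0.00759. The 32 genes too low to be tested singly had 87.4 to 129 summed counts in the other 6 libraries and 39.3 and 24.1 in NB2i.

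**Figure D2:**
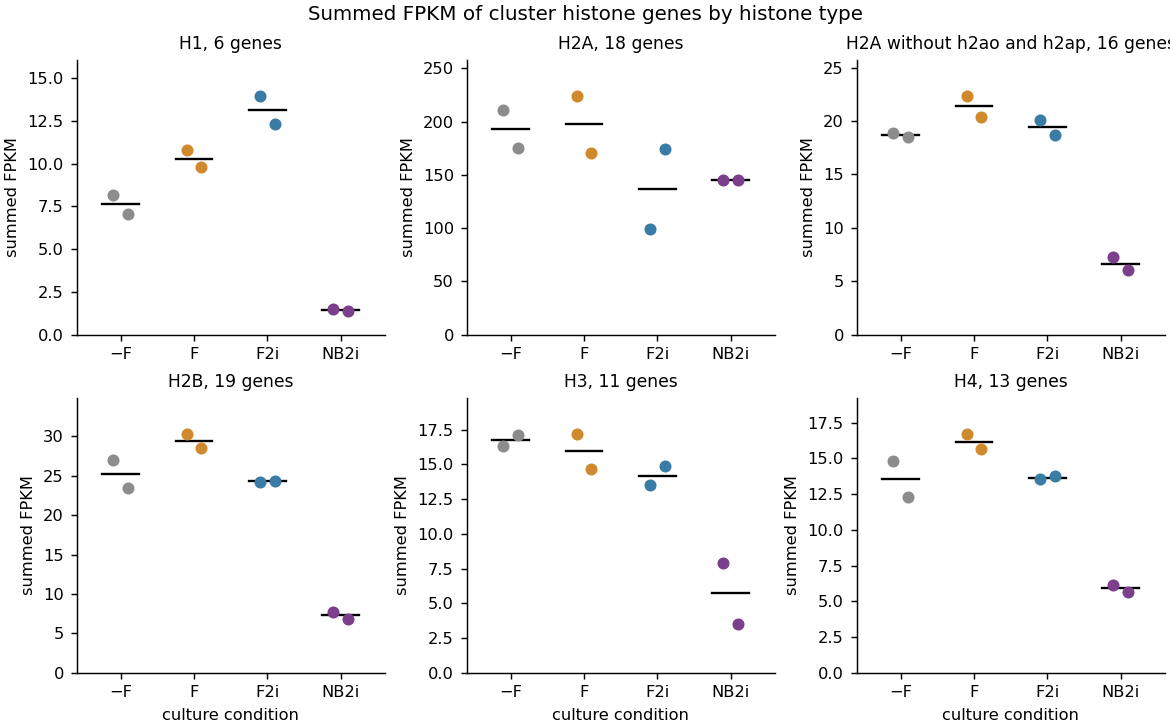
Summed FPKM of the genes of each histone type in the 4 culture conditions; points are the 2 libraries per condition, lines their mean. NB2i was the lowest condition in H1, H2B, H3 and H4 and in H2A without Hist1h2ao and Hist1h2ap, and the F2i points stand far apart in H2A.

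Of the 35 genes tested singly, 26 were called lower in NB2i than in F at an adjusted p under 0.05 and at least 2-fold, and none higher, where 17.6% of all 15287 genes tested were called lower and 10% higher. Against F2i 21 were lower, with 13.3% of all genes lower and 6.01% higher. Against −F 24 were lower, with 16.1% of all genes lower and 11.1% higher. Hist1h2bq and Hist1h2br, which are 1 measurement, are each counted in all these numbers of genes and calls. No member was called higher in these 3 comparisons by edgeR, DESeq2 or limma on log2(FPKM + 1), and none rose at an unadjusted p under 0.05 in edgeR. A set of 15 genes was called lower against all 3 conditions: the 5 H1 genes, Hist1h2ae, Hist1h2ag, Hist2h2aa1, Hist1h2bj, Hist1h2bm, Hist1h2bq and Hist1h2br, Hist1h3h, Hist1h4i and Hist1h4m. Against F2i, the calls of Hist1h1d and Hist1h1e did not hold without NB2i replicate 1 or without NB2i replicate 2, Hist1h1e had under 3 counts in each F2i library, and DESeq2 called 3 of the 5 H1 genes. The median log2 fold change of the 35 genes was −1.67 against F, −1.46 against F2i and −1.70 against −F, beside −0.007, 0.018 and 0.01 for all genes. Leaving out any 1 library, 19 of the 26 calls against F held in each fit, 10 of the 21 against F2i and 15 of the 24 against −F. Without NB2i replicate 2, the count against F2i was 13.

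**Figure D3:**
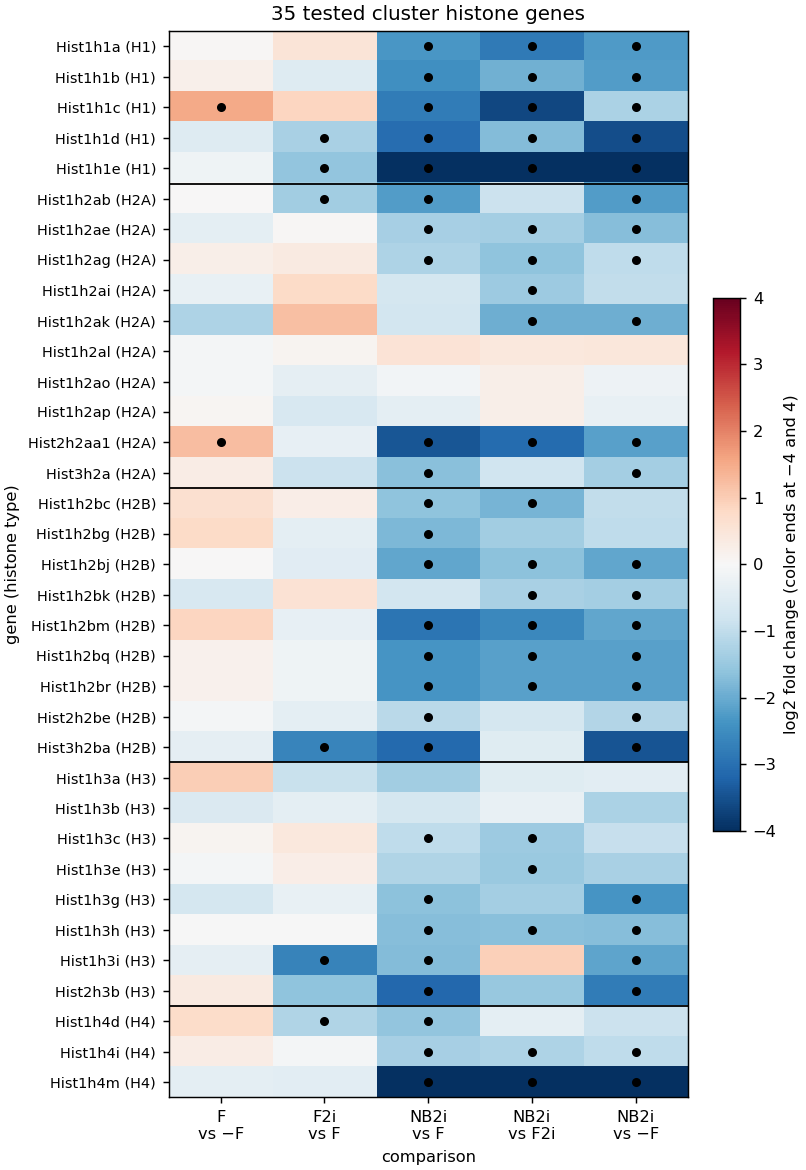
Log2 fold changes of the 35 tested cluster histone genes (rows, by histone type) in 5 comparisons (columns), blue for lower and red for higher in the condition named first; black dots mark an adjusted p under 0.05 with at least 2-fold. Dots fill most of the 3 NB2i columns, with 26, 21 and 24 genes, against 2 and 6 in the F vs −F and F2i vs F columns, while Hist1h2ao, Hist1h2ap, Hist1h3a, Hist1h3b and the pseudogene Hist1h2al have none.

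Of the 5 types, the H1 sum fell furthest in NB2i against each of the other conditions. Hist1h1c, which encodes H1.2, had 21.2 and 28.7 expected counts in −F, 77.7 and 64.4 in F, 129 and 122 in F2i and 9.83 and 10 in NB2i. Its values rose from −F to F and from F to F2i without overlap of any groups, and were lowest in NB2i. Its log2 fold change in NB2i was −2.78 ± 0.28, edgeR adjusted p = 8.83e-09, against F. Against F2i, Hist1h1c differed by −3.65 ± 0.25, edgeR adjusted p = 2.81e-11. Against −F it was lower by a smaller amount, −1.26 ± 0.34, edgeR adjusted p = 0.0026. Hist1h1a, which encodes H1.1, had 32 and 24 expected counts in −F, 24 and 33 in F, 48 and 31 in F2i and 7 and 4 in NB2i, and both NB2i libraries were the lowest. Its log2 fold change against F was −2.32 ± 0.44, edgeR adjusted p = 7.41e-05. Hist1h1b, the H1.5 gene, had 18 and 17 expected counts in −F, 22 and 18 in F, 15 and 12 in F2i and 3 and 4 in NB2i. For the counts of under 10 in NB2i the ratio to F was 0.173 (95% counting interval 0.0655 to 0.391), and its edgeR adjusted p was 1.20e-04. Hist1h1d, the H1.3 gene, had 38.2 and 26.5 expected counts in −F, 22 and 21.6 in F, 4.99 and 11.6 in F2i and 2.17 and 3 in NB2i, and its ratio of NB2i to F was 0.113 (95% counting interval 0.0348 to 0.283). In Hist1h1e, the H1.4 gene, no count was found in either NB2i library. With a floor of 3 counts per library put in for NB2i, the mean count of F was 3.21-fold higher. The counts of Hist1h1e were 11.6 and 9.85 in −F, 12.3 and 6.99 in F and 2.66 and 2.54 in F2i, and F2i was thus itself under the floor. All intervals and floors cover counting error only, and the floors only that of the libraries without a count.

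**Figure D4:**
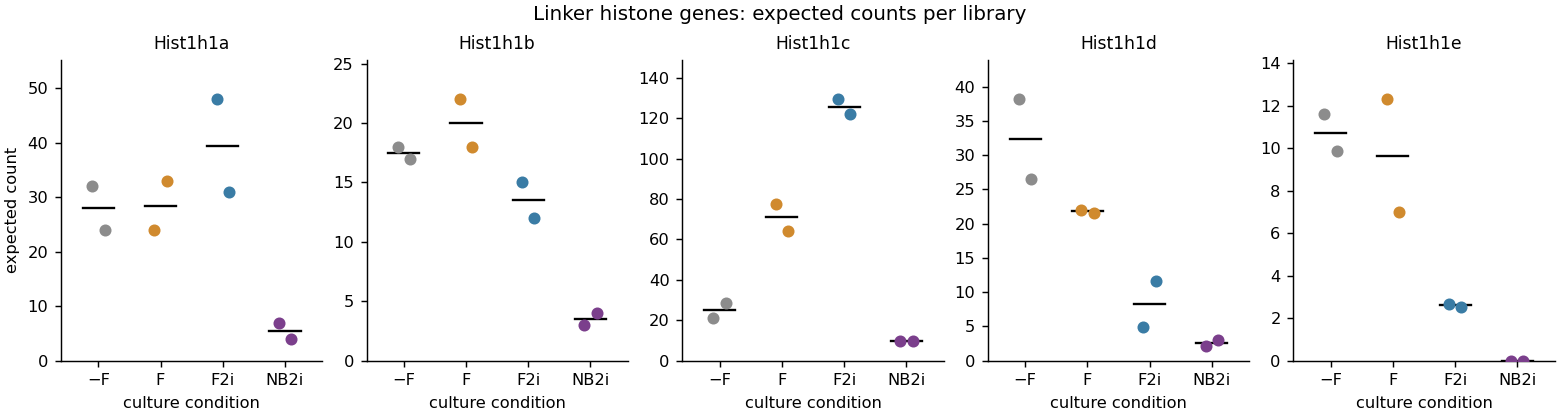
Expected counts of the 5 tested linker histone genes in the 4 culture conditions, with a point per library and a line at the mean. Hist1h1c has 21.2 to 28.7 counts in −F and 122 to 129 in F2i, Hist1h1d and Hist1h1e are lower in F2i than in F, and all 5 genes are lowest in NB2i.

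The H1 genes also differed in which members supplied the RNA. The H1 sum rose with feeders and with 2i in serum only when Hist1h1c was in it. With it, the sum was 123 and 106 counts in −F, 158 and 145 in F, 200 and 179 in F2i and 22 and 21 in NB2i. Without it, the other 5 genes had 102 and 77.3 counts in −F, 80.3 and 80.6 in F, 70.7 and 57.2 in F2i and 12.2 and 11 in NB2i. The log2 fold change of the whole H1 sum was 0.43 ± 0.13, edgeR adjusted p = 0.0127 in F against −F. Without Hist1h1c it was −0.13 ± 0.18, edgeR adjusted p = 0.605. DESeq2 did not call the whole H1 sum in either serum comparison (DESeq2 adjusted p = 0.207 and 0.182). In F2i against F the whole sum changed by 0.37 ± 0.12, edgeR adjusted p = 0.0126. Without Hist1h1c the sum changed by −0.28 ± 0.19, edgeR adjusted p = 0.218. In NB2i against F the H1 sum fell by a like amount with and without Hist1h1c: −2.78 ± 0.19, edgeR adjusted p = 2.00e-11, and −2.76 ± 0.27, edgeR adjusted p = 8.76e-09.

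Among H2A genes other than Hist1h2ao and Hist1h2ap, Hist1h2ag and Hist3h2a had the highest mean FPKM. Hist1h2ag had 37.7 and 43.6 expected counts in −F, 51.3 and 43 in F, 63.1 and 54 in F2i and 20.8 and 17.9 in NB2i. The NB2i values were the lowest, with a log2 fold change of −1.23 ± 0.26, edgeR adjusted p = 2.37e-04, against F. Hist3h2a, from the small cluster on chromosome 11 (chr11:58954685-58956830), had 47.9 and 33.1 expected counts in −F, 59 and 39 in F, 25.4 and 26.7 in F2i and 20.4 and 10.4 in NB2i. It fell in NB2i by 1.67 on the log2 scale ± 0.33 (edgeR adjusted p = 1.18e-04). Hist2h2aa1, of the chromosome 3 cluster, had 18.2 and 10.7 expected counts in −F, 32.1 and 35.6 in F, 19.4 and 33.2 in F2i and 1.9 and 3.65 in NB2i, and its ratio of NB2i to F was 0.0874 (95% counting interval 0.031 to 0.2). All windows of Hist2h2aa1 occur in other annotated genes as well. Hist1h2ab had 18.6 and 11.1 expected counts in −F, 17.6 and 12 in F, 6.78 and 4.3 in F2i and 2.52 and 2.97 in NB2i, with NB2i the lowest. Hist1h2ae had 23 and 17.6 expected counts in −F, 15.7 and 15.1 in F, 16.6 and 14.3 in F2i and 4.03 and 8.09 in NB2i. Its log2 fold change against F was −1.32 ± 0.47, edgeR adjusted p = 0.0152, and the call was lost without F replicate 1 or NB2i replicate 1. Hist1h2ak, with 1.63 to 10.6 counts over all libraries, was lower in NB2i than in F2i and −F, and without either NB2i library neither call held. Hist1h2ai had 3.38 and 22.1 expected counts in −F, 7.49 and 13.1 in F, 18.7 and 14.4 in F2i and 5.06 and 6.85 in NB2i, and was called lower in NB2i than in F2i, a call lost without any 1 of those 4 libraries. Only 9.9% of the windows of Hist1h2ai are its own.

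For Hist1h2ap, the log2 fold change in NB2i was −0.40 ± 0.18, edgeR adjusted p = 0.0539, against F, and for Hist1h2ao it was −0.10 ± 0.16, edgeR adjusted p = 0.575. Summed over both genes it was −0.29 ± 0.17, edgeR adjusted p = 0.125. With the genes pooled, NB2i had 1296 and 1308 counts, below F at 1839 and 1410.0, and between the F2i libraries at 734 and 1441. The 16 other H2A genes had 194 and 189.6 counts in −F, 225 and 212 in F, 203 and 189 in F2i and 88.2 and 70.4 in NB2i. Their log2 fold change was −1.44 ± 0.13, edgeR adjusted p = 1.99e-09, against F. Thus the summed H2A result depended on this pair: over 18 genes it was −0.39 ± 0.15, edgeR adjusted p = 0.0217, and leaving out F replicate 1, NB2i replicate 1 or NB2i replicate 2 raised the adjusted p above 0.05. Against F2i the H2A sum was 0.09 ± 0.15, edgeR adjusted p = 0.625, whereas the 16 genes gave −1.33 ± 0.13, edgeR adjusted p = 1.62e-08. Hist1h2al, annotated as a processed pseudogene on chromosome 13, was the only tested member with a positive log2 fold change against both F and −F, 0.54 ± 0.39, edgeR adjusted p = 0.225 against F.

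Hist1h2bc supplied the largest part of H2B RNA, with 116 and 64.2 expected counts in −F, 131 and 142 in F, 174 and 145 in F2i and 45.1 and 42.9 in NB2i. Its NB2i values were the lowest and its log2 fold change against F was −1.60 ± 0.21, edgeR adjusted p = 8.60e-07. Hist1h2bk had 31.2 and 39 expected counts in −F, 22.6 and 20.9 in F, 30.3 and 33.2 in F2i and 9.58 and 16.4 in NB2i, and differed from F by −0.72 ± 0.35, edgeR adjusted p = 0.0693. Hist1h2bj had 12 and 28.1 expected counts in −F, 25.1 and 15.3 in F, 7.65 and 20.4 in F2i and 5.6 and 3.44 in NB2i. The measurement shared by Hist1h2bq and Hist1h2br was 19.4 and 23.9 expected counts in −F, 22.6 and 24.8 in F, 20.1 and 21.4 in F2i and 5.11 and 3.91 in NB2i per gene, and their sum fell in NB2i, −2.35 ± 0.31, edgeR adjusted p = 7.44e-07 against F. Hist2h2be had 37.2 and 32.9 expected counts in −F, 33.4 and 32.4 in F, 28.6 and 19.2 in F2i and 16.2 and 13.9 in NB2i. Its log2 fold change was −1.08 ± 0.31, edgeR adjusted p = 0.004, the smallest fall among the called H2B genes, and without NB2i replicate 2 it was −0.97, under 2-fold. All its windows are its own. Hist3h2ba, from chromosome 11, had 39.8 and 20 expected counts in −F, 24 and 22 in F, 3 and 4 in F2i and 3.34 and 2 in NB2i, so both 2i conditions were low, and its ratio of NB2i to F was 0.108 (95% counting interval 0.0334 to 0.27). Hist1h2bm fell to 2.22 and 1.33 counts in NB2i, a ratio to F of 0.119 (95% counting interval 0.023 to 0.39). Over the 19 genes, H2B sums were 335 and 275 counts in −F, 354 and 341 in F, 319.6 and 305 in F2i and 109 and 92.8 in NB2i, and the log2 fold change was −1.75 ± 0.12, edgeR adjusted p = 1.85e-11, against F.

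H3 RNA was led by Hist1h3c, with 41.2 and 45.2 expected counts in −F, 47.4 and 45.4 in F, 61.6 and 56.5 in F2i and 31.9 and 11.9 in NB2i. Its NB2i libraries differed, and the log2 fold change against F was −1.03 ± 0.30, edgeR adjusted p = 0.0043, which became −0.48 (edgeR adjusted p = 0.1385) without NB2i replicate 2 and −0.99, under 2-fold, without F replicate 1. The 11 H3 genes had 155 and 165 counts in −F, 163 and 139 in F, 127 and 139 in F2i and 74 and 33 in NB2i in all. Both NB2i libraries were below the other 6, and the log2 fold change against F was −1.46 ± 0.21, edgeR adjusted p = 2.19e-06. Without NB2i replicate 1 it was −2.15, and without NB2i replicate 2 it was −0.98. Hist1h3h had 13.7 and 24.4 expected counts in −F, 19.9 and 17.4 in F, 24.1 and 10.6 in F2i and 6.18 and 5.17 in NB2i and fell in NB2i, −1.70 ± 0.51, edgeR adjusted p = 0.0053 against F. Hist2h3b had 4.34 and 19 expected counts in −F, 17.2 and 11.5 in F, 7.7 and 1.18 in F2i and 2.3 and 1.09 in NB2i, and its ratio of NB2i to F was 0.103 (95% counting interval 0.02 to 0.331). All windows of Hist2h3b occur in other annotated genes, and only 6.1% of those of Hist1h3h are its own. The values of both genes thus depend on how reads were divided. In Hist1h3a, Hist1h3b and Hist1h3e no call was made against F. Hist1h3a had 29.5 and 4.56 counts in the F libraries, further apart than its condition means.

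All 13 H4 genes encode the same protein, so their sum is the RNA of the cluster genes for H4. It was 113 and 94 counts in −F, 127 and 118 in F, 102 and 105 in F2i and 47 and 43 in NB2i, with both NB2i libraries the lowest. The log2 fold change was −1.41 ± 0.17, edgeR adjusted p = 1.58e-07, against F. Hist1h4i (chr13:22040636-22041362) was the most abundant, with 51 and 47.9 expected counts in −F, 60.8 and 58.7 in F, 55.9 and 54.3 in F2i and 23.5 and 23.5 in NB2i. It fell in NB2i, −1.32 ± 0.22, edgeR adjusted p = 2.09e-05 against F. Its windows were 71.1% its own over a GENCODE transcript of 727 bases, where the deposited model had 403, so the share over the counted bases can differ. Hist1h4m had 26.2 and 17.6 expected counts in −F, 15.9 and 17 in F, 9.09 and 14.7 in F2i and 0 and 0 in NB2i. With a floor of 3 counts per library put in for NB2i, the mean count of F was 5.49-fold higher. Hist1h4m shares 89.8% of its windows with Hist1h4n, which had 3.14 counts in NB2i replicate 1 and none in any other library. The 0 of Hist1h4m can thus depend on how reads were divided. Hist1h4d had 11.4 and 7.92 expected counts in −F, 14.8 and 16.5 in F, 6.72 and 5.68 in F2i and 6.33 and 4.34 in NB2i, with NB2i below F, a call lost without NB2i replicate 2.

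Sums over genes that encode the same protein gave the same directions against F. The 7 genes of the H3 protein that Hist1h3b encodes had a log2 fold change of −1.35 ± 0.28, edgeR adjusted p = 2.11e-04. The 4 genes of the H3 protein that Hist1h3a encodes had −1.65 ± 0.24, edgeR adjusted p = 3.88e-06. For the 3 H2B genes that share the Hist1h2bc protein it was −1.63 ± 0.20, edgeR adjusted p = 3.22e-07. For the 6 H2B genes that share the Hist1h2bf protein it was −2.51 ± 0.31, edgeR adjusted p = 3.17e-07. The 9 H2A genes with the Hist1h2ab protein, Hist1h2ao and Hist1h2ap among them, changed by −0.34 ± 0.15, edgeR adjusted p = 0.0468.

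The comparison of F with −F addressed feeders alone, since both had serum and no inhibitor. Hist1h1c and Hist2h2aa1 were higher in F, and no tested member was called lower, beside 5.59% of all genes called higher and 1.65% lower. By edgeR 1 member was lower at an unadjusted p under 0.05, and DESeq2 and limma called none lower and 1 higher. Hist1h1c, at 21.2 and 28.7 counts in −F and 77.7 and 64.4 in F, rose by 1.53 ± 0.23, edgeR adjusted p = 1.28e-05 on the log2 scale. Hist2h2aa1, at 18.2 and 10.7 counts in −F and 32.1 and 35.6 in F, rose by 1.25 ± 0.35, edgeR adjusted p = 0.0063, and without −F replicate 2 the adjusted p was 0.0767. Hist1h2bc, at 116 and 64.2 counts in −F and 131 and 142 in F, differed by 0.63 ± 0.19, edgeR adjusted p = 0.0099, under 2-fold. Without −F replicate 2 this was 0.26 (edgeR adjusted p = 0.232), and by DESeq2 it did not pass the test either. The H2B, H3, H4 and H2A sums did not pass the test, with log2 fold changes of 0.21, −0.06, 0.27 and 0.05 and SEs of 0.09, 0.17, 0.14 and 0.14. Over the 65 genes other than Hist1h2ao and Hist1h2ap, a pair left out after its values were seen, the sum was higher in F by 0.21 ± 0.08, edgeR adjusted p = 0.0418. This does not show a general rise. Without Hist1h1c the H1 sum differed by −0.13 ± 0.18, and without Hist1h2bc the H2B sum differed by 0.002 ± 0.11. The median over the 35 genes was 0.03, beside 0 for all genes.

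The comparison of F2i with F addressed the inhibitors on feeders in serum. The sum over the 65 genes other than Hist1h2ao and Hist1h2ap differed by −0.04 ± 0.08, edgeR adjusted p = 0.713. With that pair included, the sum over all cluster histone genes changed by −0.32 ± 0.10, edgeR adjusted p = 0.0123. This whole sum was 2867 and 2366 counts in F and 1685.5 and 2358 in F2i. In F2i 6 tested members were called lower than in F and none higher, beside 7% of all genes lower and 6.44% higher. Neither DESeq2 nor limma called a member higher, each called 2 lower, and 1 member was higher at an unadjusted p under 0.05 in edgeR. That gene was Hist1h1c, at 129 and 122 counts against 77.7 and 64.4, with a log2 fold change of 0.87 ± 0.17, edgeR adjusted p = 1.36e-04, under 2-fold. Hist3h2ba fell from 24.0 and 22.0 counts to 3 and 4, a ratio of 0.153 (95% counting interval 0.0584 to 0.342) (edgeR adjusted p = 2.27e-04). Hist3h2ba was the 1 call of the 6 that held with any library left out. Hist1h3i fell from 10.6 and 17.4 counts to 3.58 and 0, a ratio of 0.144 (95% counting interval 0.0367 to 0.412), and without F2i replicate 2 the adjusted p was 0.0601. The other called genes were Hist1h1d (log2 fold change −1.31 ± 0.42, edgeR adjusted p = 0.0123), Hist1h2ab and Hist1h4d, and Hist1h1e at a ratio of 0.318 (95% counting interval 0.104 to 0.829). Without F replicate 1, 3 members were called lower and 1 higher.

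In the sums by type, F2i differed from F by −0.10 ± 0.09 in H2B, −0.13 ± 0.17 in H3 and −0.19 ± 0.14 in H4 on the log2 scale, none past the test. The 4 genes of the Hist1h3a protein fell, from 66.8 and 55.1 counts to 37.2 and 36.7, −0.67 ± 0.21, edgeR adjusted p = 0.011. Those of the Hist1h3b protein had 0.14 ± 0.23, edgeR adjusted p = 0.628. The H2A sum fell by 0.47 ± 0.15 (edgeR adjusted p = 0.0094), a call lost without F2i replicate 1 or without F replicate 1. Without F2i replicate 1 it was −0.13, without F replicate 1 it was −0.28, and over the 16 genes other than Hist1h2ao and Hist1h2ap it was −0.11 ± 0.11, edgeR adjusted p = 0.402.

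Genes of the testis type were near the limit of detection. Hist1h1t, the testis linker histone gene, had 2 counts in −F replicate 1, 1 in F replicate 2 and none elsewhere. Hist1h2aa had 1.01 to 1.02 counts in 3 libraries and Hist1h2ba had 1.20 in 1, all in feeder cultures. A count of 0 in a library allows up to 3 counts. In the Hist2 cluster, Hist2h2ab, Hist2h2ac, Hist2h2bb, Hist2h3c2 and Hist2h4 had at most 9.99 counts, and Hist4h4, the only gene of the fourth cluster, at most 3. The pseudogene Hist3h2bb-ps was listed in 2 libraries with 1.25 and 1.66 counts.

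The sequence upstream of the start site was examined after tested members of every type had been called lower in NB2i. RefSeq promoter sequences (GRCm38.p6) were matched by gene ID for 60 of the 67 genes, with 61 entries, and the 250 bases before the start site are shown for 3 of the genes called lower against each condition. Capitals mark the motif CCAAT, the letters TATAAA of the TATA box, the octamer ATTTGCAT and the H1 box AAACACA, searched on both strands at any position. Distance from the start site was not considered, so a marked TATAAA need not be a TATA box. Other TATA-like letters are unmarked.
Hist1h1c upstream, chr13:23738557-23738806, plus strand: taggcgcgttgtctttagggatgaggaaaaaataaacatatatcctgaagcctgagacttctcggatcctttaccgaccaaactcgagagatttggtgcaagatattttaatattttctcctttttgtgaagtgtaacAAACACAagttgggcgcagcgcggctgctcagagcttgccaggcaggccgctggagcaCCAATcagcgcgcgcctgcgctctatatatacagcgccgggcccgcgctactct
Hist1h1a upstream, chr13:23763418-23763667, plus strand: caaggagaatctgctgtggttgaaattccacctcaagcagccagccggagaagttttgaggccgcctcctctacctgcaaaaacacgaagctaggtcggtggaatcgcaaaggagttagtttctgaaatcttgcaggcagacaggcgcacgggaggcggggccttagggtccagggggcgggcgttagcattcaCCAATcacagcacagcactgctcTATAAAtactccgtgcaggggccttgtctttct
Hist1h4i upstream, chr13:22041363-22041612, minus strand: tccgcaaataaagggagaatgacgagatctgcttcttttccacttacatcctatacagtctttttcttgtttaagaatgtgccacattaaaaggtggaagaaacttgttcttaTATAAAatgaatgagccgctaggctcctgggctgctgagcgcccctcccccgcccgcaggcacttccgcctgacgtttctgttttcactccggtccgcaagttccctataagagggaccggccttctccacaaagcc
Over these 250 bases, CCAAT was found in 83.6% of the 61 windows against 33.8% of 32851 promoter windows of the same length: in all 6 of H1, 17 of H2A and 17 of H2B, in 8 of 9 of H3 and in 3 of 12 of H4. TATAAA was found in 47.5% against 12.4%. ATTTGCAT, bound by Oct factors, was found in 23% against 1.6%, in 7 of 17 H2A and 7 of 17 H2B windows and in no other type. AAACACA was found in 14.8% against 6.2%, in 5 of 6 H1 windows, Hist1h1a being the exception. These are matches of letters, not measured binding sites, and the windows of some H2A and H2B genes, such as Hist1h2ag and Hist1h2bj, overlap. Motifs were not set against the calls, and a link between them and the lower RNA in NB2i was not tested.

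Genes of related function gave a background to these differences. Among 13 histone variant genes in the files, the summed FPKM was 1829 to 2110 in all 8 libraries, against 162 to 299 for the 67 cluster genes. No variant was called in any comparison by edgeR or DESeq2, and limma called 1 lower in NB2i than in −F. In NB2i against F, edgeR gave 7 of the 11 tested variants higher and 2 lower at an unadjusted p under 0.05, all under 2-fold. H1f0, which encodes the replacement linker histone H1.0, had 18.1 and 18.1 FPKM in F and 33.3 and 32.6 in NB2i. It rose by 0.91 ± 0.05, edgeR adjusted p = 1.19e-12 on the log2 scale. H1fx, another linker histone variant, fell by 0.89 ± 0.08 (edgeR adjusted p = 7.11e-10). H2afz had 661 and 652 FPKM in F and 749 and 758 in NB2i, 0.24 ± 0.04, edgeR adjusted p = 5.31e-05 on the log2 scale.

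Of 21 genes for the processing of histone mRNA, among them Slbp and the U7 snRNP genes, none was called in NB2i against F, with 5 higher and 7 lower at an unadjusted p under 0.05, and the median log2 fold change was 0. Zfp473, which encodes a zinc finger protein of the histone pre-mRNA complex, was lower in NB2i than in −F, −1.31 ± 0.07, edgeR adjusted p = 1.96e-13. Of 10 genes that control histone transcription, Ccne1 was called lower and Cdk2 higher in NB2i against F. Ccne1, the cyclin E1 gene, had 123 and 117 FPKM in F, 56.1 and 56.6 in F2i and 22.9 and 25.2 in NB2i, and its log2 fold change was −2.27 ± 0.05, edgeR adjusted p = 6.84e-20, against F. Cdk2, the kinase that cyclin E activates, rose by 1.09 ± 0.04, edgeR adjusted p = 1.41e-15. Npat, the coactivator that this kinase phosphorylates at the histone clusters, had 11.1 and 11.7 FPKM in F and 9.76 and 10.4 in NB2i. None of 15 histone chaperone genes was called in NB2i against F, with 6 higher and 8 lower at an unadjusted p under 0.05 in edgeR. Of 26 S phase and replication genes none was called in NB2i against F by edgeR, DESeq2 or limma, with 11 higher and 8 lower at an unadjusted p under 0.05 and a median of 0.04. Uhrf1 was called higher against −F by edgeR and not by limma. All 14 genes of G2 and mitosis had negative log2 fold changes in NB2i against F with a median of −0.29. None was called by edgeR, DESeq2 or limma, and 13 were lower at an unadjusted p under 0.05. In NB2i against −F, Cdc20 was called lower.

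RNAs without a poly-A tail and feeder RNA moved with some of these differences. The 14 such RNAs in the files had 19.7 and 20.7 summed FPKM in −F, 49.4 and 35.6 in F, 32 and 31.2 in F2i and 15 and 20.6 in NB2i, and 4 of them were tested. Rn7sk, the 7SK RNA, had 2.11 and 2.77 FPKM in −F, 15.1 and 8.25 in F, 3.8 and 3.1 in F2i and 0.97 and 1.3 in NB2i. In NB2i against F, 3 of the 4 were called lower, among them Rn7sk at −3.30 ± 0.37, edgeR adjusted p = 6.30e-08, and Rpph1, the RNase P RNA. In F against −F, Rn7sk and Rpph1 were called higher. Against −F, none of the 4 was called in NB2i by edgeR, DESeq2 or limma, and none was lower at an unadjusted p under 0.05, but 3 of the 4 had negative log2 fold changes, with a median of −0.98, and Rn7sk had −1.03 ± 0.51, edgeR adjusted p = 0.0756. The part of RNA without a poly-A tail in the histone result was not tested.

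Of 20 feeder fibroblast markers, 18 were called higher in F than in −F and 19 lower in NB2i than in F. The other marker in NB2i against F was Fn1, which ESCs also express and which was called higher. The 19 markers without Fn1 had 29.0 summed FPKM in each −F library, 359 and 375 in F, 837 and 818 in F2i and 8.5 and 7.7 in NB2i, and 3 markers, Postn, Dcn and Lum, were at 0 in both NB2i libraries and 1, Lum, in both −F libraries. Beside these, the 65 histone genes had 921 and 829 counts in −F, 1028 and 956 in F, 951 and 917 in F2i and 340.5 and 260.2 in NB2i. Hist1h1c and the sum of the 19 markers both stood in the order NB2i, −F, F and F2i. Single markers did not all keep that order. In F2i against F, 17 of the 20 had positive and 3 negative log2 fold changes. In NB2i against −F, 5 were positive and 14 negative. The part of feeder RNA in the values of Hist1h1c and of the other histone genes was not tested.

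**Figure D5:**
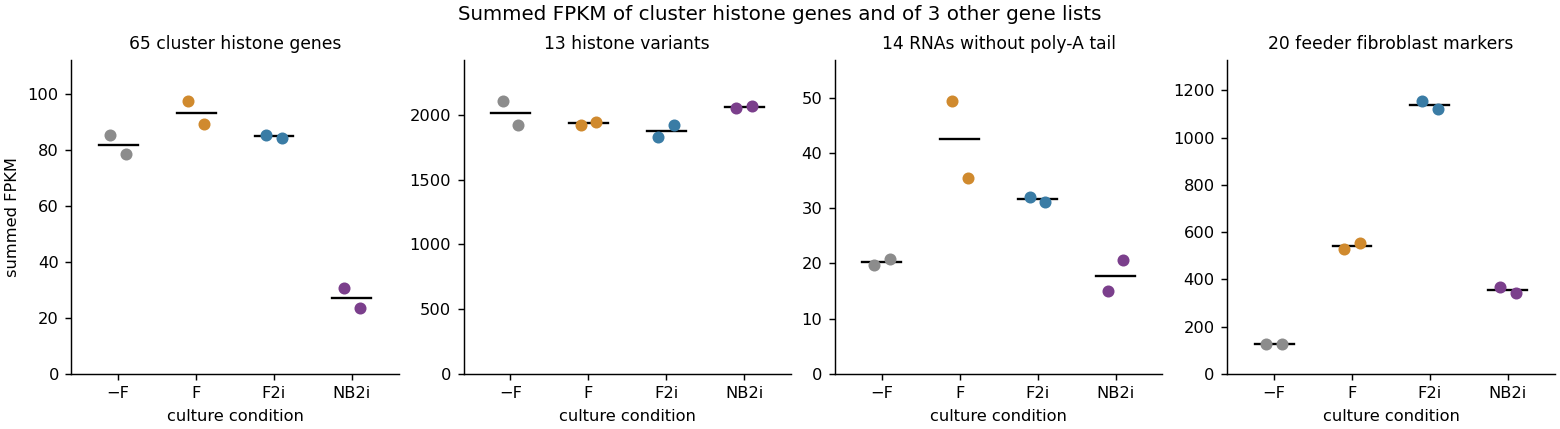
Summed FPKM per library for the 65 cluster histone genes other than Hist1h2ao and Hist1h2ap, 13 histone variants, 14 RNAs without a poly-A tail and 20 feeder fibroblast markers, with lines at the means. The 65 histone genes are lowest in NB2i, the variants stay between 1829 and 2110, the RNAs without a poly-A tail peak in F, and the feeder markers peak in F2i, with Fn1 alone at 358 and 334 FPKM in NB2i.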

How the data were processed

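Poly-A RNA of 8 libraries was read by the authors from 1 end over 50 bases (BGISEQ-500). Alignment by the authors was to mm10 (Bowtie2), and RSEM gave the gene estimates. The authors deposited an expected count per gene, which is RSEM's estimate of its reads (29.5 to 30.0% of values not whole) and is not normalized, and an FPKM, the same estimate per length and depth. No library was pooled. Samples were assigned to conditions by their labels. The cluster histone genes and all gene lists were chosen with earlier results of these data known.

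Expected counts were rounded and fitted over all 8 libraries with edgeR 4.0.16 (glmQLFit and glmQLFTest, R 4.3.3) with TMM factors of 0.9775 to 1.0283 and no block. A gene was kept where 2 or more libraries had 10 or more counts, which left 15287 of 20278. Benjamini-Hochberg adjustment ran over all of them, and a call needed an adjusted p under 0.05 and at least 2-fold. Sums over a histone type or over genes with the same protein, taken over all members whether kept or not, were added as rows of a separate fit and passed at an adjusted p under 0.05 alone. The biological coefficient of variation was 3.25%, so small p-values rest on the model; the smallest p an exact permutation test of 2 against 2 can give is 0.3333. Alternatives were DESeq2 1.42.0 on the counts and limma 3.58.1 on log2 FPKM with 1 or 0.1 added (2 or more libraries at 0.5 FPKM or above), other scalings and filters, and fits without 1 library. The SE of a log2 fold change was its absolute value divided by the square root of the edgeR F statistic. Intervals of count ratios are exact 95% binomial ones. On simulated data for NB2i against F, edgeR recovered 179 of 200 changed genes with 10 false calls among 15004 genes. The changed genes were drawn at any level and all genes had the same spread. That rate therefore cannot be carried over to low-count histone genes.

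The text names up to 6 of the most abundant tested genes per type, up to 5 called genes each way per comparison, the testis-type and small-cluster genes, and called genes of the other lists. Other genes were named after their values were seen. Gene positions, windows and stem-loops are from GENCODE M21 (GRCm38, the build of mm10) and promoters from RefSeq. Chi-square per degree of freedom between the 2 libraries of a condition was 1.89 to 3.71, above the 1 that sampling alone gives, so none was counted as a repeat of another.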

Additional observations from a re-analysis of the deposited data

How the results depend on the processing

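Of 380 sums and counts recomputed under other settings, 332 were labelled the same. A sum was the same if it stayed on its side of the threshold, and a count if it equalled or was near the main one. A sum past the threshold in neither fit could change its sign and still be labelled the same. The cause of the differences below was not tested unless named. With DESeq2 the log2 fold changes that lost their call were the H1 sum in F against −F (0.42) and in F2i against F (0.38), and the H2A sum in F2i against F (−0.47), NB2i against F (−0.39) and NB2i against −F (−0.36). With no filter on low counts the same H2A sums were −0.48, −0.39 and −0.34, not called. With limma they were −0.57, −0.43 and −0.40 at a pseudocount of 1, with or without the filter, and −0.57, −0.43 and −0.41 at 0.1, not called. Limma called lower in F2i than in F the H2B sum, −0.26 at a pseudocount of 1 with or without the filter and −0.27 at 0.1, and the H4 sum, −0.23 at 1 with the filter.

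Leaving out the most abundant gene changed sums by construction. Without Hist1h1c the H1 sum turned to −0.13 in F against −F and −0.28 in F2i against F. In F2i against F, H2A without Hist1h2ap was −0.27 and not called, while H2B without Hist1h2bc (−0.42) and H3 without Hist1h3c (−0.47) were called lower. H2A without Hist1h2ao and Hist1h2ap, an alternative added after seeing the data, turned to −1.33 in NB2i against F2i and was −0.11 in F2i against F.

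Counts of called members varied with the tool and the filter. Of the 2 higher in F than in −F, 1 was called with DESeq2, with at least 10 counts in every library and with limma at a pseudocount of 1. Of the 6 lower in F2i than in F the count was 2 with DESeq2 and with limma at 1, and 0 with 10 counts in every library. With 10 counts in every library, where 11 members are tested, 7, 6 and 7 were lower in NB2i than in F, F2i and −F. Limma at 1 called 13, 11 and 10 lower with the filter and 12, 11 and 9 without it. Limma at 0.1 called 1 member higher in F2i than in F and 1 higher in NB2i than in −F.

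Leaving out each library in turn, where the lone library of a condition is assumed to vary like the others, kept the H1, H2B, H3 and H4 sums called lower in NB2i in each comparison. The ranges of sums with a changed call were 0.33 to 0.54 for H1 in F against −F, 0.28 to 0.46 for H1 and −0.92 to −0.13 for H2A in F2i against F, 0.0787 to 0.36 for H2B in F against −F, and for H2A −0.55 to −0.20, −0.25 to 0.53 and −0.47 to −0.19 in NB2i against F, F2i and −F. Members called higher were 1 to 3 in F against −F and 0 to 1 in F2i against F. Members called lower were 3 to 7 in F2i against F, 21 to 26 in NB2i against F, 13 to 18 against F2i and 17 to 26 against −F.

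The replicate numbers only name the libraries: the deviations of same-numbered libraries had correlations of −0.0854 to 0.0514 over 6 pairs of conditions. In a fit with a replicate block the H2A sum in NB2i against −F was −0.34 (edgeR adjusted p = 0.0530), no longer called, and no other type sum changed its call. With that block 5 members were lower in F2i than in F and 26, 20 and 24 in NB2i than in F, F2i and −F. At this depth 32 of the 67 genes were too low to be tested singly, and a gene at 0 may have up to 3 counts per library.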
